A study of Mus musculus with 6 samples.

Results

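Homeobox genes of the Hox, Lhx, Dlx and Nkx families and the Gata genes encode transcription factors that assign regional and organ identity. Their genes were taken from the annotation of the array by symbol alone: Hoxa, Hoxb, Hoxc, Hoxd, Lhx, Dlx or Gata followed by a digit, or any symbol starting with Nkx. A probe set, the group of probes that together report 1 transcript, had to carry exactly 1 symbol. This gave 73 of the 19938 genes named on the array, read by 74 of 21789 such probe sets. Each gene was represented by its probe set of highest mean. The 73 genes were 10 of Hoxa, 9 of Hoxb, 9 of Hoxc, 10 of Hoxd, 8 of Lhx, 7 of Dlx, 7 of Gata and 13 of Nkx, and 3 of them (Dlx1as, Gata5os and Hoxd3os1) are RNAs named for the opposite strand of a neighbouring factor.

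The cells were medullary epithelial cells of the mouse thymus, sorted as CD45-, Ly51 intermediate and MHC class II high. All mice were 4 to 6 weeks old and of the (B6xNOD)F1 background. The 3 Aire WT mice carried the normal gene, and the 3 Aire KO mice were Aire-/- on the same background. Each array was taken as 1 mouse, since the sample titles number replicates and name no mouse. Each SD is over the 3 arrays of a group, which limit the precision. Which part of Aire was deleted is not given in the sources used here.

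Hox genes lie in clusters in which the order along the chromosome follows the order of expression from head to tail, and their proteins bind DNA together with Pbx and Meis partners. Lhx proteins act through the adaptor Ldb1, Dlx genes pattern the pharyngeal arches and limbs, Nkx factors specify organs such as lung, thyroid, heart and islets, and Gata factors direct blood, heart and gut fates. The thymic epithelium itself arises from the third pharyngeal pouch under Hoxa3, Pax1, Pax9, Eya1 and Foxn1. Medullary cells are known for expressing genes of many organs, a large number of them under control of Aire, and comparing WT with KO cells shows which transcripts differ when Aire is missing.

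Values are log2 intensities unless said otherwise, and a difference is the mean of the KO arrays minus the mean of the WT arrays. Intensities of different probe sets cannot be ranked against each other, so each gene is compared only with itself across arrays. Median intensities on the linear scale ran from 92.9 on WT replicate 3 to 98.2 on WT replicate 1 over the 6 arrays, with 93.5 on KO replicate 3. The medullary markers set down for this comparison were bright, with a mean of 11.19 to 11.21 on the WT arrays and 11.21 to 11.26 on the KO arrays, and all 12 passed the intensity filter. Among them Cd86 and Ctss rose by 0.97 and 0.46 on the log2 scale, and Krt5, Krt14 and Epcam fell by 0.85, 0.44 and 0.37. Aire itself read 12.00, 11.92 and 11.99 on the WT arrays and 12.38, 12.41 and 12.42 on the arrays labelled KO. It was higher on the KO arrays, and since the deleted part is unknown here, this signal does not check the labels.

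WT replicate 3 stood apart for the patterning genes. Of the 73 genes, 48 (65.8%) had their lowest value on that array, against 30% of all genes on the array. The median of the 73 deviated by -0.20 from each gene's own mean there, and by -0.020 to 0.11 on the 5 other arrays. The homeobox genes outside the 73 moved the same way: 28 of 41 other genes of the ANTP class and 23 of 40 genes of the paired, Pou and related homeobox classes were lowest on WT replicate 3. All genes too dim to test were lowest there in 42.6% of cases and all tested genes in 24.5%. Most thymocyte markers were high on the same array: 10 of 15 had their highest value there, while 3 (Zap70, Ptcra and Bcl11b) had their lowest. The mean of the 15 was 6.85 on it, against 6.50 and 6.44 on the other WT arrays and 6.21 to 6.52 on the KO arrays. Cd3g read 8.18, 8.04 and 9.32 in WT, Cd8a 6.998, 7.11 and 8.02, Rag1 6.84, 6.50 and 7.60 and the leukocyte gene Ptprc 6.92, 6.85 and 7.49. Ptprc was listed with the dendritic cell and macrophage markers, of which 6 of 14 were highest and 4 lowest on WT replicate 3. The part of thymocytes or other leukocytes in the low homeobox values was not tested. Because this array belongs to the WT group, the main counts and each called patterning gene are also given without it, and the part of this array in the differences was otherwise not tested.

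**Figure D1:**
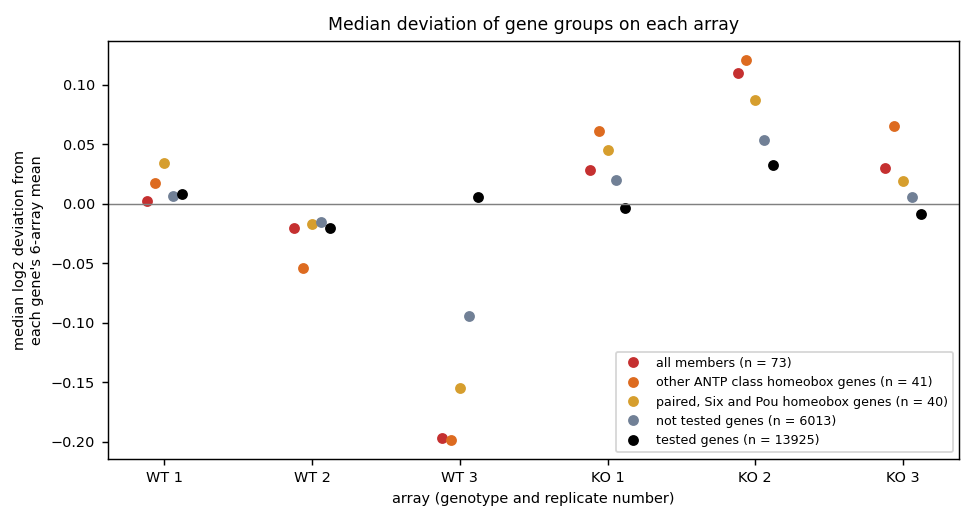
Median log2 deviation from each gene's mean over the 6 arrays (y axis) on every array (x axis, genotype and replicate number), for the 73 patterning genes, 2 further groups of homeobox genes, the 6013 genes below the intensity filter and the 13925 tested genes. The patterning genes lie at -0.20 on WT replicate 3 while the tested genes lie near 0 there.

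A gene was tested where its log2 intensity exceeded 5.97, the 40th percentile of all values, on at least 3 arrays. By that filter 44 of the 73 genes were tested and 29 were not, with 33 above the filter on all 6 arrays and 23 on none. All but 1 of the tested genes had KO arrays above the filter. The exception, Hoxb13, passed through its WT values and so had to be lower in KO. Hoxa10, Hoxc6 and Hoxd9 were above the filter on 3 KO arrays and 1 WT array, so their KO values alone met the rule. Of these, Hoxc6 and Hoxd9 are among the rises below. With no intensity filter Hoxc6 kept its call and Hoxd9 lost it.

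Of the 44 tested genes, 8 rose and 1 fell in the KO mice (limma, Benjamini-Hochberg adjusted p under 0.05), 9 in all. Of all 13925 tested genes 26.1% changed, 12% upward and 14.1% downward. The share of patterning genes that rose was 18.2% and the share that fell 2.27%. The 8 that rose were Nkx2-6, Nkx6-2, Hoxc6, Hoxa7, Nkx3-2, Hoxa4, Nkx6-3 and Hoxd9, and Hoxb13 fell. None of the 44 changed 2-fold, as 2.64% of all tested genes did. The 95% confidence intervals of the 44 differences, taken gene by gene from the fit, all lay between -0.565 and 0.71, inside the bound of a 2-fold change in either direction. Background signal compresses the fold of dim genes, so these bounds hold for the array signal. Without WT replicate 3, 3 genes rose (Nkx2-6, Nkx6-2 and Hoxc6) and Hoxb13 fell. That is 6.82% of the 44, against 11.1% of all tested genes rising in the same fit, so the higher share among patterning genes was not seen without this array. Leaving out WT replicate 1 or WT replicate 2 instead left 6 rises each time (13.6%), against 10.2% and 9.87% of tested genes. Leaving out a KO array left 4 rises (9.09%, against 7.55% of tested genes, replicate 1 out), 5 (11.4%, against 8.71%, replicate 2 out) or 3 (6.82%, against 8.19%, replicate 3 out). With no intensity filter 5 of the 73 rose and 1 fell, against 8.93% and 11% of all genes. Hoxb13 lost its call without KO replicate 3, and without WT replicate 1 there were 2 falls, Hoxb13 and Gata4.

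Over all 73 genes, dim ones included, the median difference was 0.14, against 0.040 over all 19938 genes. The KO mean was the higher in 60 of the 73 (82.2%), against 57.3% of all genes. Without WT replicate 3 the median was 0.069, against 0.027 over all genes, and 56 of the 73 had the higher mean in KO. Groups that did not overlap were found for 16 of the 73 (21.9%), against 38.3% of all genes. All KO arrays lay above all WT arrays in 15 of them (20.5%), near the 21% of all genes, and below in 1 (1.37%), against 17.4%. Among the 44 tested genes the groups did not overlap in 11 (25%, against 42.4% of tested genes), 10 with KO above (against 22%) and 1 with KO below (against 20.5%). The spread between arrays was larger for the WT group, with a median SD of 0.15 over the 73 genes, than for KO at 0.099. Over all genes these medians were 0.11 and 0.095. The WT spread includes WT replicate 3, where the 73 genes deviated by a median of -0.20, against 0.0026 and -0.020 on WT replicates 1 and 2.

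**Figure D2:**
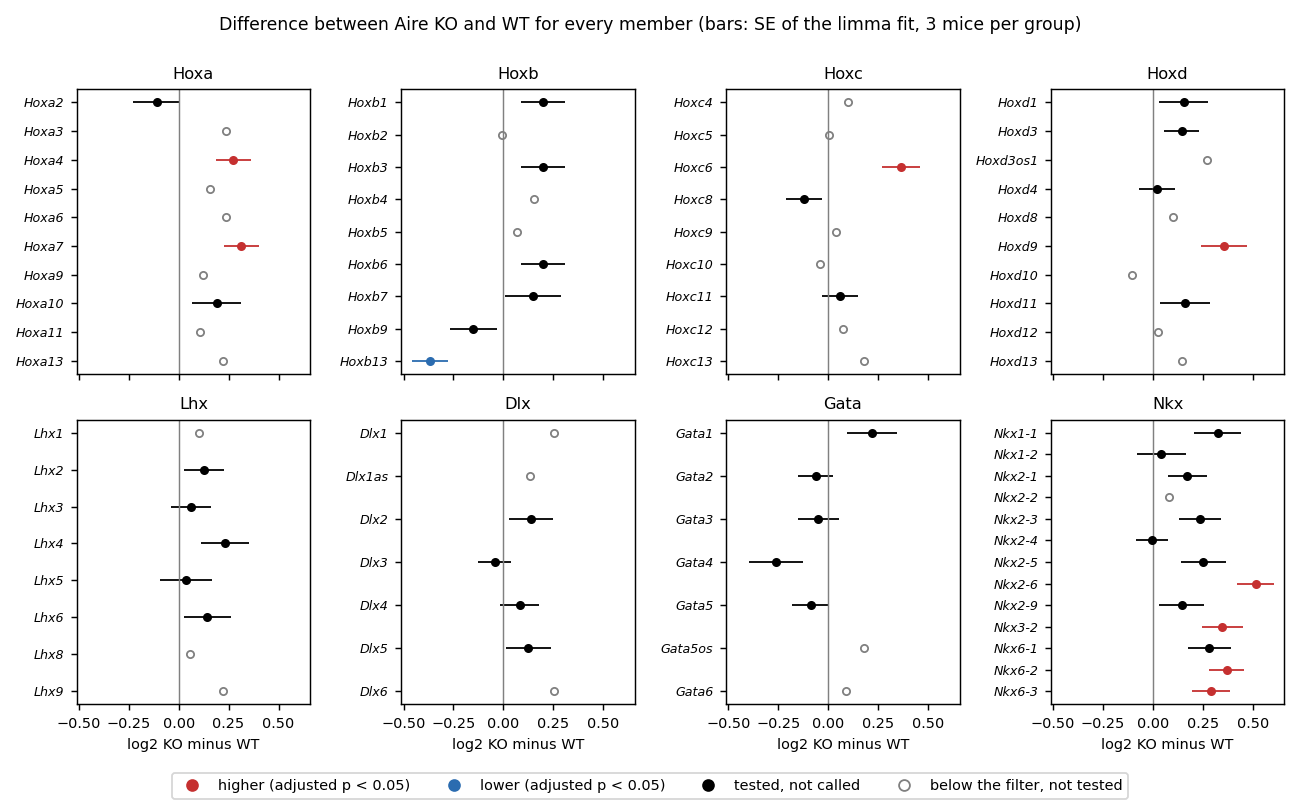
Difference between KO and WT on the log2 scale (x axis) for all 73 genes, in a panel per family with genes in order of their number. Points are differences of means of 3 mice, bars the SE of the limma fit, red and blue points the 8 genes that rose and the 1 that fell, black points tested genes that did not pass and open points the 29 genes below the filter, which have no test. Most points lie between 0 and 0.3, and no gene reaches a difference of 1.

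The Nkx family held 4 of the 8 rises: 4 of its 12 tested genes rose, 0 fell, and 8 did not pass. For this and the family counts below, the shares over all tested genes were 12% rising and 14.1% falling. Without WT replicate 3, only Nkx2-6 and Nkx6-2 of the 4 kept the call. Nkx2-6, a factor of the pharyngeal pouches and heart field, read 8.75, 8.59 and 8.57 on the WT arrays and 9.27, 9.06 and 9.12 on the KO arrays. Every KO array lay above every WT array. The means were 8.64 ± 0.10 and 9.15 ± 0.11 (SD, n = 3 each), a rise of 1.43-fold (difference 0.51, SE 0.091, limma adjusted p = 0.0017), and the difference was 0.48 without WT replicate 3 (limma adjusted p = 0.0059). It was the largest difference among the 73.

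Nkx6-2, which acts in neural tube patterning and in oligodendrocytes, was nearly equal in the WT mice at 8.04, 8.04 and 8.02 and read 8.49, 8.47 and 8.26 in the KO mice. The groups did not overlap. The means were 8.04 ± 0.011 and 8.41 ± 0.13 (SD, n = 3 each), a rise of 1.29-fold (difference 0.37, SE 0.087, limma adjusted p = 0.0094), and 0.36 without WT replicate 3. With Nkx2-6 it was 1 of 2 patterning genes whose call held in each fit that left out an array.

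Nkx3-2, a factor of cartilage and spleen formation, read 6.26, 6.12 and 6.11 in WT and 6.33, 6.69 and 6.50 in KO. KO replicate 1 stood only just above WT replicate 1. It rose by 0.35 (SE 0.10, limma adjusted p = 0.028), which was 0.32 without WT replicate 3 and no longer passed (limma adjusted p = 0.067). Nkx6-3, a factor of gastric endocrine and surface cells, read 6.76, 6.72 and 6.63 in WT and 6.92, 7.17 and 6.89 in KO. Its rise of 0.29 (SE 0.095, limma adjusted p = 0.044) was the least secure of the 8: every fit that left out an array lost the call, with limma adjusted p between 0.0545 and 0.139 (0.099 without WT replicate 3, at a difference of 0.25), and so did 5 of the other settings beside the fold minimum.

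Other Nkx genes had positive differences that did not pass. Nkx1-1 read 7.41, 7.45 and 7.02 in WT and 7.498, 7.69 and 7.66 in KO, with groups that did not overlap (difference 0.32, limma adjusted p = 0.062), and it passed with another quantile normalization (limma adjusted p = 0.045), median centring (0.038) and without WT replicate 2 (0.038). Nkx6-1, a regulator of islet beta cells and motor neuron progenitors, differed by 0.28 (limma adjusted p = 0.073), with overlapping groups, and passed with array weights (limma adjusted p = 0.0495) and without WT replicate 2 (0.041) or KO replicate 2 (0.044). Nkx2-3, a gut and spleen factor, differed by 0.24 with groups that did not overlap (limma adjusted p = 0.12), and the cardiac factor Nkx2-5 by 0.25 (limma adjusted p = 0.13). On WT replicate 3 these 4 genes had the lowest of their 6 values, and without it their differences were 0.19, 0.19, 0.13 and 0.15. All 13 Nkx genes were lowest on that array. Nkx2-1, the master regulator of lung and thyroid, read 6.39, 6.31 and 6.05 in WT and 6.45, 6.43 and 6.38 in KO (difference 0.17, 95% interval -0.043 to 0.39). Nkx2-4 at -0.0045 and Nkx1-2 at 0.041 had the smallest differences among the tested Nkx genes, and Nkx2-9 differed by 0.14. Nkx2-2, the islet and neural tube factor, was not tested and read 5.46 ± 0.051 in WT and 5.54 ± 0.073 in KO (SD, n = 3).

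**Figure D3:**
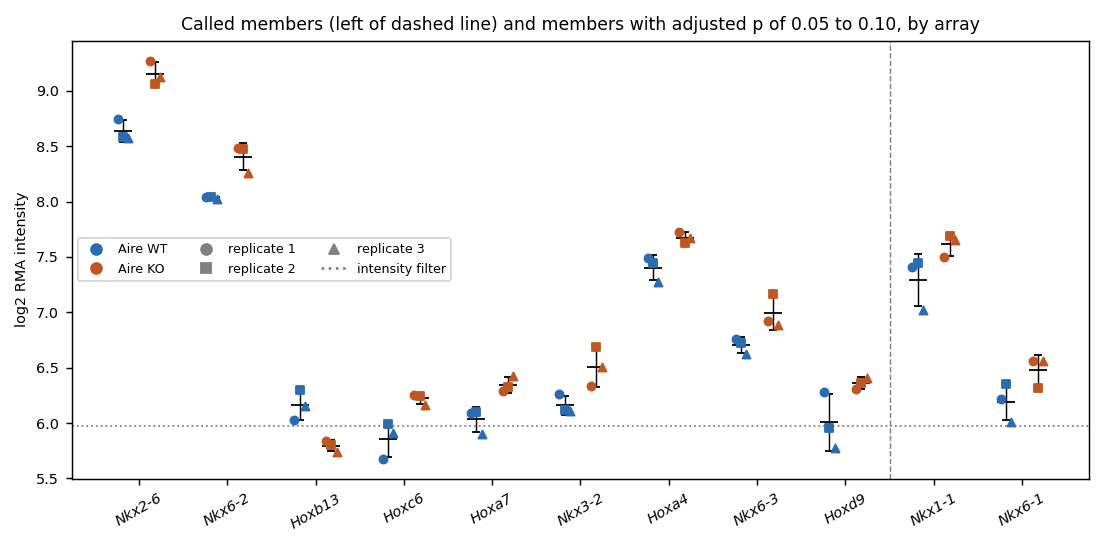
Log2 RMA intensity (y axis) on every array for the 9 called genes, left of the dashed line, and for Nkx1-1 and Nkx6-1, whose adjusted p lay between 0.05 and 0.10. Symbols mark replicate numbers, black bars the mean ± SD of 3 mice and the dotted line the intensity filter at 5.97. The groups of all 9 called genes are apart, and Hoxb13, Hoxc6, Hoxa7 and Hoxd9 lie close to the filter.

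Hoxa genes had small positive differences along most of the cluster. Of 4 tested, 2 rose, 0 fell and 2 did not pass. Hoxa4 read 7.49, 7.45 and 7.27 in WT and 7.73, 7.62 and 7.67 in KO, a rise of 0.27 (SE 0.087, limma adjusted p = 0.040). Its call was lost without WT replicate 3 (0.21, limma adjusted p = 0.087), and also without WT replicate 2 or any 1 of the KO arrays. Hoxa7 read 6.09, 6.10 and 5.90 in WT and 6.29, 6.33 and 6.43 in KO, a rise of 0.31 (SE 0.088, limma adjusted p = 0.022), which was 0.25 without WT replicate 3 (limma adjusted p = 0.051). The Hoxa7 call was also lost without KO replicate 3. In both genes the groups were apart, but WT replicate 3 gave the lowest value.

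The other tested Hoxa genes were Hoxa2, a hindbrain and second arch factor, at -0.11, and Hoxa10 at 0.19. Hoxa3, the gene of the cluster required for the thymus to form, lay below the filter on every array. It read 4.76, 4.82 and 4.75 in WT and 5.09, 5.06 and 4.89 in KO. All KO arrays exceeded all WT arrays by a little, at a level where the array cannot be said to detect the transcript. Differences of the remaining dim genes Hoxa5, Hoxa6, Hoxa9, Hoxa11 and Hoxa13 ran from 0.11 to 0.24. In the gene order, the nearest tested genes outside the cluster were Skap2, a signalling adaptor, which fell by 0.29, and Hibadh at 0.11, which did not pass.

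In the Hoxb cluster 6 genes were tested, of which 0 rose and 1 fell. Hoxb13, the most posterior gene of the cluster and a factor of prostate and hindgut, read 6.03, 6.30 and 6.16 in WT and 5.84, 5.80 and 5.74 in KO. All KO values lay below the filter, so the fall is limited by background. It fell by 0.37 on the log2 scale (SE 0.090, limma adjusted p = 0.0115), also by 0.37 without WT replicate 3, and fell by 0.34 without KO replicate 3, where the call was lost (limma adjusted p = 0.0525). Its nearest tested neighbour away from the cluster, the tubulin-modifying enzyme gene Ttll6, fell by 0.63 (limma adjusted p = 0.0010). Hoxb9, on the other side, read 7.64, 7.64 and 7.30 in WT and 7.29, 7.56 and 7.28 in KO and did not pass at -0.15. Hoxb1, Hoxb3, Hoxb6 and Hoxb7 stood at 0.20, 0.20, 0.20 and 0.15 with overlapping groups, and without WT replicate 3 at 0.071, 0.081, 0.11 and -0.033. Hoxb2, Hoxb4 and Hoxb5 were too dim to test.

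Of 3 tested Hoxc genes 1 rose and 2 did not pass. Hoxc6 read 5.68, 5.99 and 5.91 in WT and 6.25, 6.25 and 6.17 in KO. It crossed the filter on 1 WT array and on all KO arrays. It rose by 0.36 on the log2 scale (SE 0.095, limma adjusted p = 0.016), from a WT mean under the filter, so no fold is given. Hoxc6 was 1 of the genes that kept the call without WT replicate 3 (0.39, limma adjusted p = 0.022). It did not keep it without WT replicate 1 (0.28, limma adjusted p = 0.063) or KO replicate 1 (0.35, limma adjusted p = 0.057). Its neighbours did not pass: Hoxc8 stood at -0.12 and Hoxc11 at 0.059. The 6 untested Hoxc genes had differences from -0.043 for Hoxc10 to 0.18 for Hoxc13, the latter known from hair and nail keratin expression.

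Of 5 tested Hoxd genes 1 rose and 4 did not pass. Hoxd9 read 6.28, 5.96 and 5.78 in WT and 6.31, 6.36 and 6.41 in KO. It crossed the filter on 1 WT array and on all KO arrays. The WT values spread more widely than the KO values, and the lowest KO array was only just above the highest WT array. Its rise of 0.36 (SE 0.12, limma adjusted p = 0.045) was 0.24 without WT replicate 3 (limma adjusted p = 0.13). The Hoxd9 call was also lost without WT replicate 2 or any 1 of the KO arrays. Hoxd1, Hoxd3, Hoxd4 and Hoxd11 stood at 0.15, 0.14, 0.018 and 0.16. Evx2, a homeobox gene that lies beside the posterior end of this cluster and is not among the 73, rose by 0.36 with overlapping groups (limma adjusted p = 0.036). The antisense RNA Hoxd3os1 had 2 probe sets, both below the filter, with differences of 0.24 and 0.27. Whether these signals are of the RNA itself or of the opposite strand was not tested.

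Promoter sequences are shown for called genes because windows of patterning genes held more CG by their median than promoters of all genes, with a wide range from 0 to 35. The RefSeq table of promoters (GRCm38.p6) matched 47 of the 73 genes with 54 windows, here cut to the 250 bases before the start site. Their median count of the dinucleotide CG was 14, against 6 over 32851 windows of all genes. A count of 5 or fewer was found in 14.8% of the windows of patterning genes and in 49.6% of all. Among the called genes Nkx6-2, Nkx3-2, Hoxd9 and Hoxa7 had a window, with 26, 21, 13 and 7 CG. The first and the last of these are printed 5′ to 3′ on the strand of the gene, with every CG in capitals. They are the ends of this range: Nkx6-2 is dense with CG and Hoxa7 sits near the middle of all promoters, with 53.7% of all windows holding fewer. Both genes rose.
Nkx6-2, chr7:139582798-139583047, minus strand: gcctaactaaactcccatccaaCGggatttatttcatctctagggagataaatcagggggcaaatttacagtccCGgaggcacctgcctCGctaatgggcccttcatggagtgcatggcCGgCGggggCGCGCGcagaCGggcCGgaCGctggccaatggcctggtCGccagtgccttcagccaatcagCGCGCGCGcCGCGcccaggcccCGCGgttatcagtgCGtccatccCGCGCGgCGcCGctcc
Hoxa7, chr6:52218574-52218823, minus strand: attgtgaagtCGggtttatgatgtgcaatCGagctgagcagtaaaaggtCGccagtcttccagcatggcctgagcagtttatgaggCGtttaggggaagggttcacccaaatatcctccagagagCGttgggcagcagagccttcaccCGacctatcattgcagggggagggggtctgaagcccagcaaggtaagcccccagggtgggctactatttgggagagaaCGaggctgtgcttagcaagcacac

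Short binding words of the factors themselves were searched on both strands of the same windows. The Gata word AGATAA stood in 5.56% of the windows of patterning genes (3 of 54) and in 9.99% of all, and the Nkx6-2 window printed above holds it. CACTTG, a word of the Nkx2 type, stood in 7.41% and in 11.6% of all. TAATTA, a pair of homeodomain cores, stood in 3.7% and 4.84%, and TTTATG, a word of posterior Hox proteins, in 9.26% and 10.8%. TTTATG occurs in the Hoxa7 window. The search shows only whether these letters are present.

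Lhx and Dlx genes gave no call. All 8 Lhx differences were positive, from 0.036 for Lhx5 to 0.23 for Lhx4, and 5 were tested. Lhx4, a factor of pituitary and motor neurons, read 7.35, 7.23 and 6.94 in WT and 7.31, 7.60 and 7.31 in KO, and did not pass (limma adjusted p = 0.18). Its WT and KO arrays overlapped, with WT replicate 3 lowest, and the difference without that array was 0.12. Lhx2, of forebrain and hair follicle stem cells, stood at 0.13 and Lhx6, of cortical interneurons, at 0.14. Lhx9 was below the filter, at 4.93 ± 0.10 in WT and 5.15 ± 0.098 in KO (SD, n = 3).

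Dlx5, which acts in the pharyngeal arches and in bone, read 8.01, 7.80 and 8.27 in WT and 8.22, 8.07 and 8.16 in KO. It was above the filter on all arrays, and it did not pass at 0.13 (95% interval -0.12 to 0.37). Unlike most patterning genes it had its highest value on WT replicate 3, and without that array the difference was 0.25. Dlx3, of epidermis and hair, stood at -0.044 (95% interval -0.23 to 0.14) and Dlx4 at 0.082, both clear of the filter on every array. Dlx2 stood at 0.14. Dlx1 and Dlx6 were not tested, at 0.26 and 0.25.

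Gata genes had a median difference of -0.050 over the family, 0.012 without WT replicate 3, and none of the 5 tested genes passed. Gata3, a factor of T cells, innate lymphoid cells and skin, read 7.80, 7.63 and 7.90 in WT and 7.90, 7.62 and 7.66 in KO. The groups overlapped and the difference was -0.050 (95% interval -0.28 to 0.18). Gata4, of heart and gut endoderm, read 7.15, 7.40 and 7.79 in WT and 7.16, 7.21 and 7.18 in KO. The KO mice lay close together (SD 0.026) while the WT mice spread widely (SD 0.32), and the lowest WT array was below all KO arrays. Gata4 did not pass at -0.26 (SE 0.13, limma adjusted p = 0.17). Without WT replicate 1 it passed at -0.41 (limma adjusted p = 0.031), and without WT replicate 3, its highest array, the difference was -0.091. Gata2, of blood progenitors and mast cells, stood at -0.063, and Gata5, of gut and heart, at -0.088. Gata1, the erythroid regulator, crossed the filter on 3 arrays, at 5.78, 5.98 and 5.48 in WT and 5.81, 6.09 and 5.99 in KO. Gata6 was below the filter on all arrays, at 5.41 ± 0.069 in WT and 5.50 ± 0.070 in KO (SD, n = 3).

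Thymocyte markers were present at low level in both groups, and Gata3 is also a gene of those cells. Of 11 tested markers Cd3g fell, from 8.51 ± 0.70 to 7.12 ± 0.54 (SD, n = 3, limma adjusted p = 0.0072), and 10 did not pass. The mean of the 15 markers on the array ran from 6.44 to 6.85 in WT and from 6.21 to 6.52 in KO, and 3 were under the filter on all arrays, among them the defining genes Cd3d and Cd28. In these bulk samples fewer cells of a type and less RNA per cell cannot be told apart, and the part of such cells in the Gata3 signal was not tested. Of erythroid markers, which bear on Gata1, Epb42 and Slc4a1 fell by 0.55 and 0.35 on the log2 scale and Alas2 did not pass at 0.19. The mean of the 3 markers ran from 7.37 to 7.62 in WT and from 7.11 to 7.42 in KO. B cell markers split: Blk, Pax5 and Cd79b rose by 0.47, 0.31 and 0.24, while Cd79a, Ms4a1 and Cd22 were under the filter on all arrays. Of the remaining markers tested, 2 of 6 cortical epithelial genes rose and 2 fell, 3 of 10 dendritic cell and macrophage genes rose and 4 fell, 1 of 8 fibroblast genes rose and 1 fell, 1 of 4 innate lymphoid genes rose and 1 fell, and 1 of 5 endothelial genes fell.

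Proteins that act with Hox, Lhx and Gata factors were also read. None of 9 tested Pbx, Meis and Pknox partner genes passed by limma, and their median was -0.0011. Meis2 read 9.47 ± 0.037 in WT and 9.35 ± 0.12 in KO (SD, n = 3). Of 11 tested LIM domain partners 4 fell and 0 rose, where 14.1% of all tested genes fell and 12% rose. Lmo4, which competes for Ldb1, fell 1.61-fold from 8.39 ± 0.37 to 7.69 ± 0.12, and the islet and motor neuron factor Isl1 fell by 0.42 from 7.61 ± 0.054 to 7.19 ± 0.022 (SD, n = 3). Ssbp2, a stabiliser of the Ldb1 complex, fell by 0.36 and the ubiquitin ligase gene Rlim, which degrades Ldb1, by 0.30. The calls of Ssbp2 and Rlim did not hold in each fit that left out an array, while those of Lmo4 and Isl1 did. Of 9 tested Gata cofactors Lyl1 rose by 0.34 and 8 did not pass, Gatad2b among them at -0.044. The Lyl1 difference was 0.25 without WT replicate 3, and its call did not hold in each fit that left out an array.

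Calls among chromatin regulators of Hox clusters went both ways. Of 29 tested Polycomb genes, 3 rose and 3 fell, with a median of 0.011. Neither count exceeded the shares over all tested genes, 12% rising and 14.1% falling, 26.1% in all. Phc3 rose 1.71-fold from 9.22 ± 0.10 to 9.99 ± 0.18 (SD, n = 3), Scmh1 by 0.56 and Jarid2 by 0.41 on the log2 scale. Mtf2 fell by 0.49, Pcgf3 by 0.53 and Pcgf6 by 0.34, and Rbbp7 did not pass at -0.073. The trithorax group and H3K27 demethylases held 1 call of 12, Kdm6b, which fell by 0.27, and Kdm6a did not pass at 0.37 (limma adjusted p = 0.061). Of 16 tested genes of the retinoic acid pathway, which sets Hox expression in embryos, 3 rose and 4 fell. Crabp1, a retinoic acid binding protein, fell 6.35-fold from 9.44 ± 0.32 to 6.77 ± 0.26 (SD, n = 3). The synthesis enzyme genes Aldh1a2 and Aldh1a1 fell from 7.16 ± 0.27 to 5.48 ± 0.053 and from 7.14 ± 0.24 to 5.64 ± 0.090 (SD, n = 3), with all KO values under the filter, and Crabp2 fell by 0.70 on the log2 scale. The rises were the retinoic acid degrading enzyme genes Cyp26a1 at 0.48 and Cyp26b1 at 0.31, and Stra8, known from germ cells, at 0.57. The retinol transporter gene Stra6 did not pass at 0.037.

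Factors of the pharyngeal pouch and thymus, the nearest developmental company of Hoxa3, Nkx2-6 and Dlx5, gave 1 fall among 14 tested genes and 0 rises. Six4 fell by 0.35 from 8.37 ± 0.14 to 8.02 ± 0.076, and Foxn1, the master regulator of thymic epithelium, read 9.97 ± 0.28 in WT and 9.95 ± 0.17 in KO (SD, n = 3). The Six4 call did not hold in each fit that left out an array. The median was -0.063 over the tested genes of the list, against 0.015 over all tested genes. Of 29 tested genes of the wider ANTP homeobox class, 7 rose and 1 fell, where 12% of all tested genes rose and 14.1% fell. Hmx3, of inner ear and hypothalamus, rose 1.49-fold from 7.82 ± 0.15 to 8.39 ± 0.061, Msx3 rose by 0.39 and the gut factor Cdx1 by 0.36 (limma adjusted p = 0.010), while its paralogue Cdx2 fell by 0.43 (limma adjusted p = 0.0073). The other rises were Gbx1, Evx2, Tlx2 and Gsx1, with differences of 0.27, 0.29, 0.24 and 0.19 without WT replicate 3. None of these calls held in each fit that left out an array, while those of Hmx3, Msx3 and Cdx1 did. The median over all 41 genes on the array was 0.16, and 0.078 without WT replicate 3. Of 31 tested genes of the paired, Pou and related homeobox classes 2 rose and 3 fell. The pluripotency factor Pou5f1 fell from 6.65 ± 0.37 to 5.27 ± 0.12 (SD, n = 3), under the filter on all KO arrays, and Irx4 and Pax8 fell by 0.78 and 0.35. The rises were Six3, of forebrain and eye, at 0.36 and Six5 at 0.29, or 0.24 and 0.26 without WT replicate 3. Neither call held in each fit that left out an array.

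Some genes of the organs that Gata and Nkx factors specify fell. Of the factors set beside these lists, Gata1, Gata2, Gata4, Nkx2-1, Nkx2-5 and Nkx6-1 did not pass and Nkx2-2 was not tested. Over 4 such lists, each gene counted once, 18 of 44 tested genes fell and 3 rose. Over all tested genes 14.1% fell and 12% rose. Of the 18, 4 passed the filter through WT values only, so they had to be lower in KO. Beside Nkx2-1, 4 of 11 tested lung and thyroid genes fell. Scgb1a1, the secretoglobin of airway club cells, fell from 7.66 ± 0.38 to 5.40 ± 0.20 and surfactant protein D (Sftpd) 2.32-fold from 8.03 ± 0.074 to 6.81 ± 0.24 (SD, n = 3). Sftpc fell from 6.44 ± 0.14 to 5.73 ± 0.055 (SD, n = 3) and Napsa by 0.47 on the log2 scale, and the surfactant transporter gene Abca3 stood at -0.025. Scgb1a1 and Sftpc were under the filter on all KO arrays, where background sets the level, so no fold is given.

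Beside Gata4 and Nkx2-5, 4 of 11 tested cardiac genes fell. Cardiac actin (Actc1) fell from 9.24 ± 0.065 to 8.14 ± 0.11, atrial myosin light chain (Myl7) from 7.79 ± 0.16 to 6.85 ± 0.14 and atrial natriuretic peptide (Nppa) from 7.03 ± 0.20 to 6.15 ± 0.097 (SD, n = 3). Tnnc1 fell by 0.39 and Tnnt2 did not pass at -0.058. Beside Gata1 and Gata2, 7 of 13 tested erythroid and mast cell genes fell and Kit rose, by 0.30. Carbonic anhydrase Car1 fell from 8.86 ± 0.28 to 5.35 ± 0.41 and the mast cell protease gene Mcpt4 from 6.25 ± 0.27 to 4.84 ± 0.27 (SD, n = 3), both to values under the filter. Car2 fell from 7.72 ± 0.22 to 5.93 ± 0.14 (SD, n = 3), with only 1 KO array above the filter, and platelet factor Pf4 fell by 0.64. Slc4a1, Epb42 and the tryptase gene Tpsb2 were the other falls. Carbonic anhydrases are also genes of gut and other tissues.

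Beside Nkx2-2 and Nkx6-1, 3 of 9 tested islet and gut endocrine genes fell and 2 rose. The islet peptide gene Iapp fell 4.96-fold from 8.76 ± 0.28 to 6.45 ± 0.24, somatostatin (Sst) fell by 1.84 and glucagon (Gcg) by 0.72 on the log2 scale. The endocrine factors Insm1 and Mafa rose by 0.40 and 0.32, and ghrelin (Ghrl) did not pass at 0.11. The Insm1 call held in each fit that left out an array, and the Mafa call did not. Each list was written from general knowledge of the organ, and whether the listed genes answer to these factors in thymic cells was not tested.

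**Figure D4:**
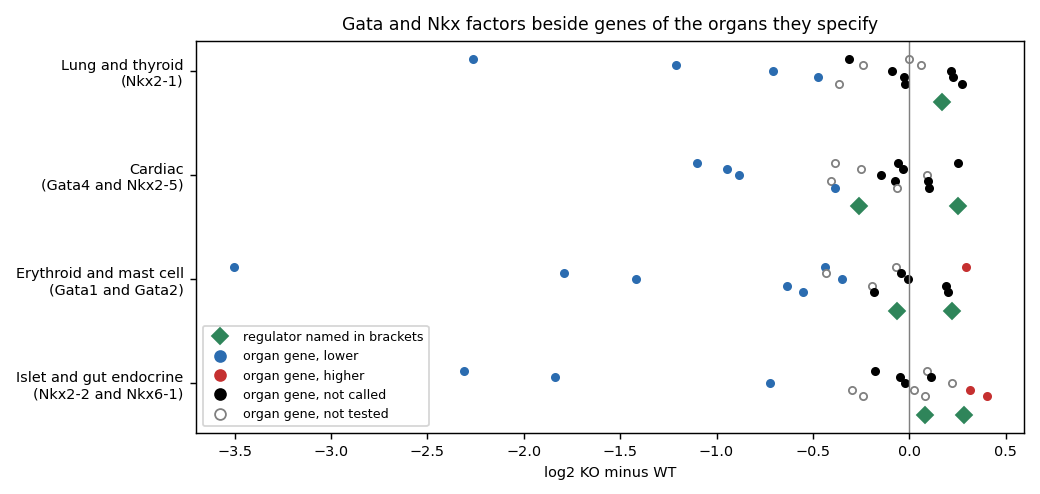
Difference between KO and WT on the log2 scale (x axis) for genes of 4 organ lists, with the Gata and Nkx factors of each organ as green diamonds. Blue points are organ genes that fell, red points those that rose, black points tested genes that did not pass and open points genes below the filter. The diamonds lie between -0.26 and 0.28, while organ genes reach -3.50 for Car1, whose KO values are under the filter.

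Genes beside the called Nkx genes in the chromosome order were mixed. On one side of Nkx2-6 the nearest tested gene, Stc1, which encodes a secreted glycoprotein, did not pass at -0.12. Beyond Stc1, Adamdec1 fell by 1.53, to a KO mean of 4.75 under the filter, and Nefm fell by 0.95. On the other side the mitochondrial iron importer gene Slc25a37 rose by 0.49 (limma adjusted p = 0.0023). The tested genes nearest to Nkx6-2, Inpp5a and Cfap46, stood at 0.091 and -0.062 and did not pass. Beside Nkx3-2, Rab28 did not pass at 0.074, while Bod1l and Cpeb2 on the other side fell by 0.27 and 0.43. Those nearest to Nkx6-3, Ank1 and Gpat4, did not pass at -0.18 and -0.051, and Ap3m2 further out rose by 0.70.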

How the data were processed

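The authors deposited linear probe set intensities, and the submitters' processing notes name RMA. As a method, RMA corrects background, gives all arrays 1 distribution and summarises probes by median polish, and the deposited intensities carry no detection call. Medians of the deposited values still differed between arrays, as given above. RNA was amplified before labelling, per the labels' protocols. No RMA version or genome build is given in the sources used here. All 6 columns matched a sample. Of 35512 probe sets 21789 carried 1 symbol, 1621 several and 12102 none, and the array annotation can be old. All 73 genes matched the RefSeq gene table (GRCm38.p6) by gene identifier, and 1 probe set with 2 symbols (Hoxb8 and Hoxb7) was not named.

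Intensities were log2 transformed (pseudocount 0) and filtered (above the 40th percentile on at least 3 arrays). The 13925 genes left were fitted together with limma 3.58.1 in R 4.3.3 (lmFit, eBayes, two-sided, Benjamini-Hochberg threshold 0.05), with genotype as the only factor, and only rows named here are printed. The fit was tested on simulated data. The labels give no batch. For a single gene, an exact permutation of 3 against 3 mice cannot go below p = 0.1, so none is given. Lists and markers are described by counts and medians, to be read beside the 12% of all tested genes that rose and the 14.1% that fell. Figures were drawn with matplotlib 3.10.9.

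The genes and lists were chosen with earlier results of these data known. The rule for named genes was Aire, all called patterning genes, those with adjusted p between 0.05 and 0.10, the one of highest mean per family, those with separate groups, and per list up to 4 called genes by adjusted p and the uncalled one of highest mean. Every other gene named, such as the remaining patterning genes, chromosome neighbours, markers and further called genes of a list, was chosen after its values were seen. Same-numbered WT and KO arrays did not deviate together (correlations of -0.018, -0.21 and -0.056). That check cannot show whether mice were paired, and the sample titles do not say.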

Additional observations from a re-analysis of the deposited data

How the results depend on the processing

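The alternatives were other intensity filters, another quantile normalization, median centring, an offset of 32, other probe set rules, other variance models, array weights, the replicate block, treat at a log2 change of 0.5 and leaving out each array. The estimated array weight was lowest for WT replicate 3, at 0.36, against 0.72 to 1.56 for the other arrays. Medians of members and lists without WT replicate 3 were added after seeing the data. The 8 rises became 5 with no intensity filter, 3 with the filter at the 60th percentile (14 genes tested), 0 with treat and 9 with another quantile normalization or median centring, and ranged from 3 to 6 without 1 array. The 1 fall became 0 with the stricter filter, which removes Hoxb13, and 0 with treat, and ranged from 0 to 2 without 1 array. Over all genes treat left 118 rises and 338 falls, and leaving out 1 array gave 1052 to 1547 rises and 1364 to 1877 falls. The replicate block gave 6 rises and 1 fall, losing Hoxa4 (limma adjusted p = 0.067) and Nkx6-3 (0.058), and 1368 rises and 1742 falls over all genes. The median of the 73 differences ranged from 0.069 to 0.19 without 1 array. Every called patterning gene kept its direction in every fit run. Nkx2-6 and Nkx6-2 kept their calls in all but treat, while Hoxd9 lost its call in 10 of 15 settings and Nkx6-3 in 12. Among called genes outside the 73, Epcam, Krt14, Cd79b, Pax5, Skap2, Pcgf6, Jarid2, Kdm6b and Cyp26b1 lost the call without at least 1 array. So did Slc4a1, Kit, Tnnc1, Mafa and Six4, beside the genes for which this is said above. Signs turned, with no call either way, for small differences. With array weights Hoxd4 stood at -0.0071, Lhx3 at -0.019, Lhx5 at -0.011, Nkx1-2 at -0.087, Gatad2b at 0.0065 and Foxn1 at 0.050. With another quantile normalization Nkx2-4 stood at 0.026 and Abca3 at 0.0091, and with median centring Nkx2-4 at 0.0078. Without 1 array the ranges were -0.137 to 0.012 for Gata3, -0.0714 to 0.0024 for Dlx3, -0.0017 to 0.149 for Dlx4, -0.173 to 0.013 for Hoxa2, -0.0332 to 0.303 for Hoxb7, -0.0436 to 0.0858 for Hoxd4, -0.0536 to 0.125 for Lhx3, -0.121 to 0.19 for Lhx5, -0.104 to 0.126 for Nkx1-2 and -0.0497 to 0.0205 for Nkx2-4. They were -0.126 to 0.144 for Foxn1, -0.135 to 0.0865 for Gatad2b, -0.0794 to 0.0257 for Ssbp3, -0.286 to 0.0029 for Pou2f3, -0.0212 to 0.1 for Stra6, -0.0392 to 0.0031 for Abca3 and -0.133 to 0.0164 for Tnnt2. The cause was not tested. Signal over background limits the 29 untested genes, whose differences may be compressed.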
